A study of Homo sapiens with 4 samples.

Results

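The imprinted SNRPN cluster on the long arm of human chromosome 15 was examined over chr15:23550000-25450000 (hg38). The interval was set by position and holds 5 named genes, MKRN3, MAGEL2, NDN, SNRPN and UBE3A. It contains 16982 CpGs in the reference. In all 4 libraries 15161 CpGs of the interval were listed, 15160 of them at a reference CpG (89.3% of these), out of 23269121 such shared CpGs on chromosomes 1 to 22 and X. The data are whole-genome bisulfite sequencing of HUDEP-2, an established, immortalised human erythroid precursor line that makes adult haemoglobin. Bisulfite turns unmethylated cytosine into a base read as T, so the percent of reads with C at a CpG is its methylation level. The 4 groups were untreated cells that were not differentiated, cells differentiated with the vehicle DMSO, cells differentiated with a DNMT1 inhibitor and cells differentiated with an EED inhibitor. The DMSO, DNMT1 inhibitor and EED inhibitor cultures were all exposed to 0.1% DMSO from expansion to harvest, with a growth stage of 4 days and a maturation stage of 2 days, and the names and doses of the compounds were not given in the labels. Every group was 1 library of 1 line, so no value has a replicate error and every test compares the reads of 2 libraries, not conditions. The difference between non-differentiated and DMSO cells includes both differentiation and the vehicle, which cannot be told apart, and both inhibitor comparisons share the DMSO library. Where 4 values follow each other, they stand for untreated, DMSO, DNMT1-inhibited and EED-inhibited cells, in that order.

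Imprinted genes are expressed from 1 parental copy. At this cluster the control region over the SNRPN start is methylated on the maternal copy and unmethylated on the paternal copy, and MKRN3, MAGEL2, NDN, SNRPN and the long SNHG14 transcript with its SNORD116 and SNORD115 small nucleolar RNAs are expressed from the paternal copy. UBE3A is expressed from the maternal copy in neurons and from both copies in most other cells. DNMT1 copies methylation to the new strand after DNA replication, and EED is a core subunit of Polycomb repressive complex 2, which methylates histone H3. Loss of the paternally expressed genes is known from Prader-Willi syndrome and loss of maternal UBE3A from Angelman syndrome.

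The control region was taken as the strict CpG island at the SNRPN start, chr15:24954857-24956258 (1402 bp), which reaches from just upstream of the start at position 24954935, through the first exon, into the first intron. The start of the MANE Select transcript lies at 24954987, inside the same island. Stretches of 150 bases are printed to show which of their CpGs were listed. They are from hg38, 5′ to 3′ on the strand of the gene, and capitals mark the CpGs listed in all 4 libraries. The first pair lies just before the SNRPN start and in its first intron, at chr15:24954785-24954934 and chr15:24955224-24955373 on the plus strand.
SNRPN upstream: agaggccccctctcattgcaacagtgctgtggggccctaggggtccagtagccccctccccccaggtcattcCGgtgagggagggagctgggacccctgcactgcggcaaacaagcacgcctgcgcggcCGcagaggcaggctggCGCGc
SNRPN intron: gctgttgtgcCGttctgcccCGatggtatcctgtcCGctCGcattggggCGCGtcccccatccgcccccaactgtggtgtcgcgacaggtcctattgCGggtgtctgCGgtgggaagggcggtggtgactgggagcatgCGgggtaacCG
In the stretch before the start, 4 of 8 CpGs were listed in all libraries. Their level was 43.6%, 56%, 35.6% and 44.3%, highest with DMSO. In the intron stretch, 10 of 14 were listed, and in the same order the level was 42.2%, 40%, 30.7% and 40.6%.

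For the other 4 genes, the stretch printed is the one with most shared CpGs outside exons, within 1000 bp upstream of the gene. These lie at chr15:23565083-23565232 (MKRN3, plus strand), chr15:23648073-23648222 (MAGEL2, minus strand), chr15:23687569-23687718 (NDN, minus strand) and chr15:25439422-25439571 (UBE3A, minus strand). Each holds only part of the shared CpGs of its promoter, and its level can differ from that of the promoter.
MKRN3 upstream: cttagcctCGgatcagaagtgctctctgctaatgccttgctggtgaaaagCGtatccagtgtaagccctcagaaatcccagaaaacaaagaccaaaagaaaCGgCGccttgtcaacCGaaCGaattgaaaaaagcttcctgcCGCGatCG
MAGEL2 upstream: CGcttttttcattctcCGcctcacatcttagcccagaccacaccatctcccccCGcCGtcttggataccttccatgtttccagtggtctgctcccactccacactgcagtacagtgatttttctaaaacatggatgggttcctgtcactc
NDN upstream: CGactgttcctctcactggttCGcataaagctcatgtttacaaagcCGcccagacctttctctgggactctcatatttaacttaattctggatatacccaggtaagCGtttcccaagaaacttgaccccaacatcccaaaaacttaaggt
UBE3A upstream: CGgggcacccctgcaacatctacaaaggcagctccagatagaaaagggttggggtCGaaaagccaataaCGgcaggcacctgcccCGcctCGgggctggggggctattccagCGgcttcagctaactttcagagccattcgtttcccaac
With DMSO these stretches stood at 81.6% for MKRN3, 65.0% for MAGEL2 and 65.5% for NDN, and with the DNMT1 inhibitor at 34.0%, 16.98% and 16.9%. In the same order of genes they stood at 81.2%, 58.3% and 55.7% in non-differentiated cells. In the EED inhibitor library they stood at 82.1%, 28.7% and 56.7%. The MAGEL2 and NDN stretches hold only 4 shared CpGs each. The UBE3A stretch was at most 2.17% in any library.

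The libraries were of similar depth, with a mean of 27.2 to 29.7 reads per listed CpG. Across all shared CpGs of the genome the level was 61.7% in non-differentiated cells, 60.3% with DMSO, 16.8% with the DNMT1 inhibitor and 59.3% in the EED inhibitor library. Promoter methylation of marker genes did not set the erythroid list apart from the myeloid and neuronal lists. The B and T cell list was higher by median, within the erythroid range. With DMSO the median was 22.3% at 10 erythroid genes (0 to 83.5%), 24% at 3 myeloid genes (18.7 to 81.7%), 30.1% at 2 neuronal genes (12.3 and 47.8%) and 58.2% at 4 B and T cell genes (56.01 to 78.21%). Intervals on levels are 95% Wilson intervals on summed reads. They cover counting error only, and they are too narrow where 1 read spans several CpGs. Results were therefore also computed after dividing each region's reads by its number of CpGs. Reads were 150 bp long, and the control region and promoters span 1402 to 1501 bp. The division therefore leaves too few independent reads there, and its p-values tend to be too large.

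Outside the control region and the 5 promoters, the rest of the interval (15031 CpGs) was less methylated than the genome in every library and kept a larger share of its level with the DNMT1 inhibitor. Its level was 47.7% in non-differentiated cells, 46.7% with DMSO, 15.9% with the DNMT1 inhibitor and 44.3% in the EED inhibitor library. The DNMT1 inhibitor library was far below the other 3. The share of the DMSO level kept with the DNMT1 inhibitor was 34.1% (95% counting interval 33.9 to 34.4%), against 27.9% over the genome. The rest of the interval differed by -2.447 points between EED inhibitor and DMSO, and by -1.044 points between DMSO and non-differentiated cells.

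**Figure D1:**
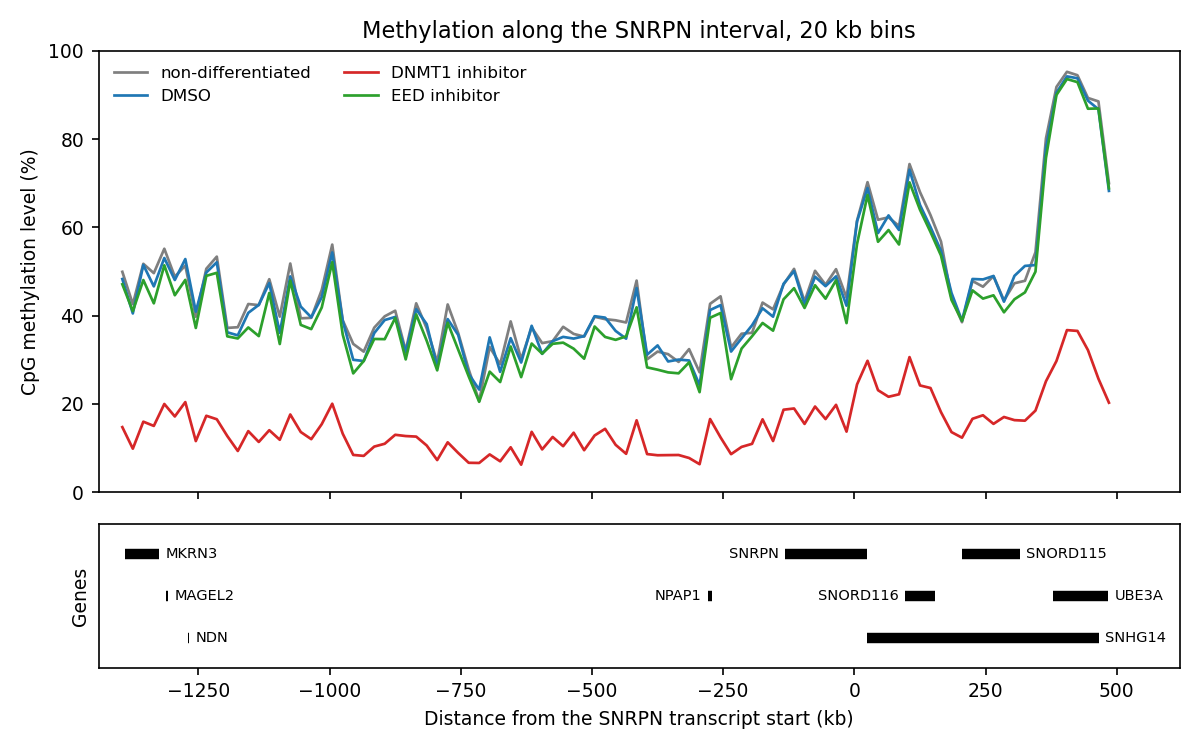
Methylation level in percent (vertical axis) in 20 kb bins against distance from the SNRPN transcript start in kb (horizontal axis), 1 line per library, with gene spans as bars underneath. The DNMT1 inhibitor line lies under the other 3 along the whole interval, and the UBE3A body is the most methylated stretch in every library.

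Methylation was uneven along the interval. Between NDN and the control region, which includes the noncoding PWRN genes, the level was 40.5%, 39.5%, 12.9% and 37.0%. The UBE3A body was the most methylated segment, at 91.2%, 90.2%, 32.1% and 89.7% in the same order. Between these, the SNORD116 cluster stood at 69.7%, 67.3%, 26.8% and 65.7%. The SNORD115 cluster was lower than SNORD116 in every library, at 46.3%, 46.9%, 16.3% and 43.6%. Of the segments outside the control region, the SNORD116 cluster kept the largest share of its DMSO level with the DNMT1 inhibitor, 39.8% (38.8 to 40.8%), and the 95% counting interval of the stretch between the control region and SNORD116 (38.1 to 40.2%) overlapped it. The UBE3A body kept 35.6% (34.8 to 36.3%).

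SNORD116 and SNORD115 RNAs are C/D box small nucleolar RNAs, a class that mostly guides methylation of other RNAs. Of 30 SNORD116 copies, 28 held a shared CpG, with a median copy level of 70.3%, 67.4%, 24.6% and 65.8% in the 4 libraries. Of 49 SNORD115 copies, 43 held one, with medians of 45.0%, 45.2%, 14.7% and 37.8%. The copies of each family are similar or near-identical in sequence, and how reads that map to several copies were treated is not given in the sources used here.

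The SNRPN control region was intermediate in the libraries without the DNMT1 inhibitor. On summed reads it kept a larger share of its DMSO level with that inhibitor than the rest of the interval. Its level was 42.3% in non-differentiated cells (interval 38.9 to 45.7%), 48.0% with DMSO (44.4 to 51.6%), 26.6% with the DNMT1 inhibitor (23.9 to 29.4%) and 37.1% in the EED inhibitor library (34.0 to 40.4%). The DNMT1 inhibitor library was the lowest and the DMSO library the highest. The region kept 55.3% of the DMSO level with the DNMT1 inhibitor (95% counting interval 48.7 to 62.8%), against 34.1% in the rest of the interval and 32.8% (30.1 to 35.8%) in the flanks of 5 kb on each side. Region minus rest was 10.6 points with the DNMT1 inhibitor, 1.33 points with DMSO, -5.451 points in non-differentiated cells and -7.123 points with the EED inhibitor. The difference between region and rest was not tested, since CpGs on 1 read are not independent.

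A call required an adjusted p under 0.01 by Fisher's exact test (two-sided, Benjamini-Hochberg over 32960 strict islands) and a difference of at least 25 points. In the DNMT1 inhibitor comparison 54% of these islands were called lower, and with the EED inhibitor 0.00607% lower and 0.0182% higher. The control region with the DNMT1 inhibitor differed from DMSO by -21.47 points (Fisher's exact test, adjusted p = 7.24e-20) and was not called, because the difference was under 25 points. In the EED inhibitor comparison it differed by -10.90 points (Fisher's exact test, adjusted p = 7.36e-04), and between DMSO and non-differentiated cells by 5.73 points (adjusted p = 0.211); neither was called. These p-values treat CpGs as independent. On divided reads, Fisher's exact test gave an adjusted p of 0.335 for the DNMT1 inhibitor and of 1 for the EED inhibitor. The share of all islands called on divided reads is not given here. With non-differentiated cells as the reference, the EED inhibitor difference was -5.16 points (Fisher's exact test, adjusted p = 0.208).

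**Figure D2:**
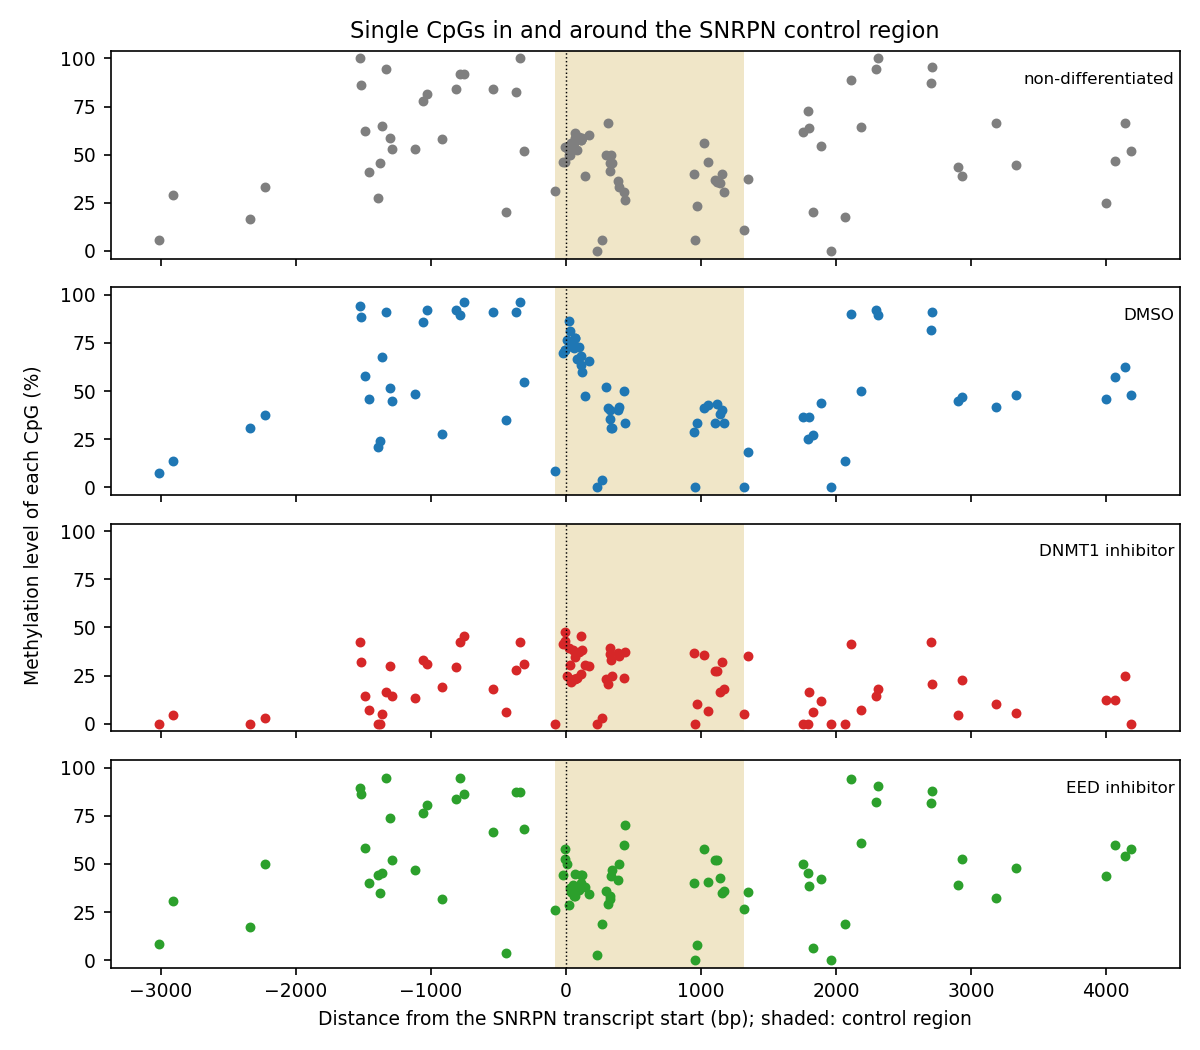
Methylation level in percent of each CpG listed in all 4 libraries (vertical axis) against distance from the SNRPN transcript start in bp (horizontal axis), 1 panel per library. The shaded control region holds 42 CpGs, and the 13 CpGs of the first exon lie between 60 and 86.7% with DMSO, while no CpG of the region exceeds 47.6% with the DNMT1 inhibitor.

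Coverage limits the control region. Of its 86 reference CpGs, 70, 63, 68 and 47 were listed in the 4 libraries, and 42 in every one. Mean coverage of these 42 was 17.5 to 23.8 reads, against 24.8 to 27.4 in the rest of the interval. With all listed CpGs of each library the levels were 41.8%, 44.2%, 27.4% and 37.8% in the same order, and the order of the libraries was unchanged. The differences were smaller: the EED inhibitor difference from DMSO was -6.473 points (Fisher's exact test, adjusted p = 0.0265) and that between DMSO and non-differentiated cells 2.41 points.

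The 2 parts of the control region stood at different levels. From its upstream edge to the end of the first exon (17 CpGs) the level was 53.9%, 69.7%, 32.1% and 40.4%, with DMSO above the others. In the intron (25 CpGs) it was 35.3%, 33.9%, 22.9% and 35.1%. There the 95% Wilson intervals of the libraries other than the DNMT1 inhibitor overlapped. The share of the DMSO level kept was 46.2% (39.2 to 54.3%) up to the end of the first exon and 67.6% (55.6 to 82.2%) in the intron. The intervals did not overlap, but they treat CpGs on 1 read as independent and are too narrow. Both shares take DMSO as the reference. Up to the end of the first exon DMSO stood at 69.7%, against 53.9% in non-differentiated cells. In the intron these libraries stood at 33.9% and 35.3%. The difference in share kept was not tested.

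The levels of single CpGs show whether an intermediate level is shared along the region. In the control region 36 of 42 CpGs lay between 30 and 70% in non-differentiated cells, 25 with DMSO, 21 with the DNMT1 inhibitor and 34 in the EED inhibitor library. In the rest of the interval 28.0% of CpGs did so in non-differentiated cells. Reads of single molecules were not analysed here, so methylated and unmethylated parental copies cannot be told apart. Single CpGs were called lower with the DNMT1 inhibitor in 6 of 42 cases in the control region and 6113 of 15031 (40.7%) in the rest, against 63.6% over the genome. A CpG under 25% with DMSO cannot be called lower, and the level with DMSO was lower here than over the genome. None was called higher, against 4.3e-06% over the genome. No CpG of the interval was called between DMSO and non-differentiated cells by Fisher's exact test, against 0% over the genome. At an unadjusted p under 0.05 by the same test there were 382, a count for which no genome share is given here. With the EED inhibitor 1 CpG was called, against 0.00374% called lower and 0.000623% higher over the genome. It lies in the body of the noncoding PWRN1 gene at position 24151571 and was named after its values were seen. Its level was 81.0% in non-differentiated cells, 89.3% with DMSO, 15.2% with the DNMT1 inhibitor and 21.9% in the EED inhibitor library.

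Within the control region 3 CpGs were at or under 20% in every library, all in the first intron. They were picked after their values were seen. The central CpG is in capitals in 22 bases of the plus strand around each, at chr15:24955153-24955174, chr15:24955196-24955217 and chr15:24955880-24955901.
low CpG 24955163: actgaataaaCGgaatttgggc
low CpG 24955206: gaaccagatcCGgaatgttcag
low CpG 24955890: tgtcgctgtcCGgagtgactaa
The first had 0 of 28 methylated reads in non-differentiated cells, 0 of 27 with DMSO, 0 of 30 with the DNMT1 inhibitor and 1 of 39 in the EED inhibitor library. In these tables an unmethylated C and a T in the line's own sequence are read alike and cannot be told apart. A count of 0 there allows a level of up to 10.7%, 11.1% and 10.0% in the first 3 of these. All 3 lie in the letters CGGA, a context noticed after the values were seen. On both strands CGGA occurs 12 times in the control region, and 99.4% of windows of the same length at 1132 strict islands of chromosome 15 hold it. The other 4 shared CpGs in CGGA were not low, at 49.3%, 43.8%, 30.8% and 41.1%, beside 45.2%, 53.6%, 28.6% and 40.1% at the 35 outside this context. Without the 3 low CpGs the control region kept 54.7% of its DMSO level with the DNMT1 inhibitor.

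The hexamer TGCCGC, the core bound by ZFP57, a zinc finger protein that protects imprinted methylation in early embryos, was searched on both strands. It occurred 3 times in the control region. Of windows of 1402 bp at 38175 strict islands, 53.7% held it and 9.43% held at least as many. Only 2 shared CpGs lie in it, at 41.5%, 59.0%, 28.6% and 46.2% in the same order of libraries.

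Of the promoters, each reaching 1000 bp ahead of the start and 500 bp past it, those of 4 genes lost at least 25 points with the DNMT1 inhibitor. MKRN3, MAGEL2, NDN and SNRPN were called lower, beside 43.7% of 18118 protein-coding promoters called lower. UBE3A could not be called lower, because its level with DMSO (16.1%) was under the 25 points that a call needs. No promoter of the 5 was called between DMSO and non-differentiated cells, where 0% of promoters were called in either direction. None was called with the EED inhibitor, where 0% were called lower and 0.0221% higher.

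**Figure D3:**
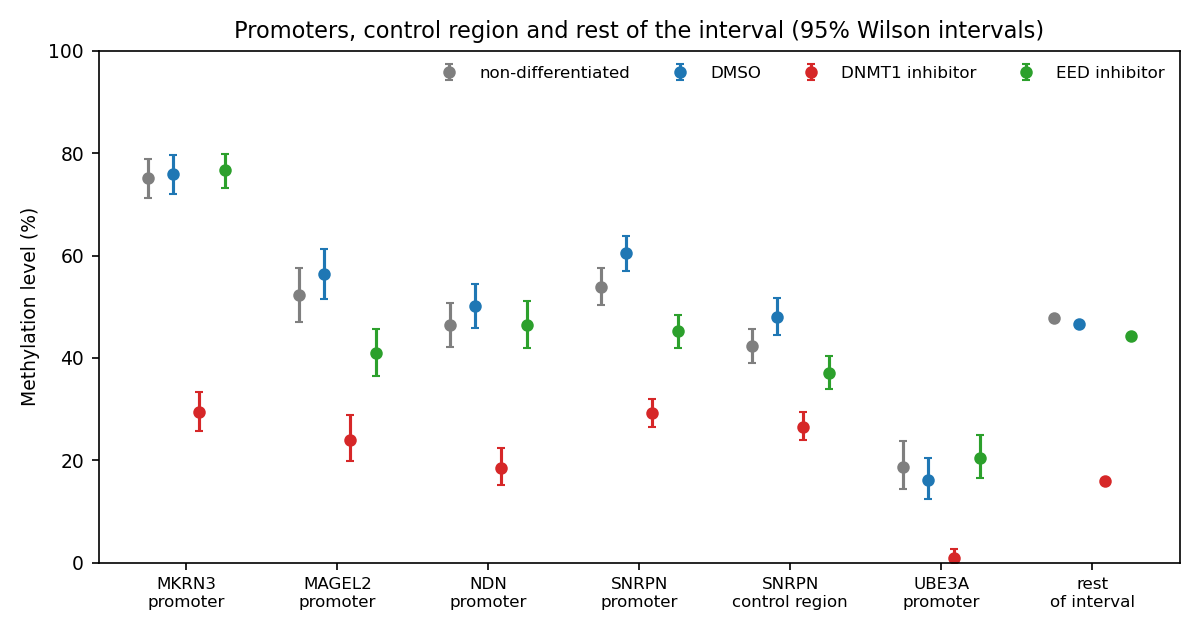
Methylation level in percent (vertical axis) for the 5 promoters, the control region and the rest of the interval, 1 point per library with a 95% Wilson interval on summed reads. The DNMT1 inhibitor point is the lowest in every region, from 29.4% at MKRN3 to 0.940% at UBE3A.

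MKRN3 encodes a zinc finger protein that restrains the onset of puberty. Its promoter (chr15:23564674-23566174, 24 of 47 CpGs shared) was at 75.2% in non-differentiated cells, 76.0% with DMSO, 29.4% with the DNMT1 inhibitor and 76.7% in the EED inhibitor library. It had the highest level of the 5 in each library, although with the DNMT1 inhibitor its interval overlapped that of SNRPN. The DNMT1 inhibitor difference was -46.63 points (Fisher's exact test, adjusted p = 2.85e-50), and 38.7% of the DMSO level was kept. One by one, 19 of its 24 CpGs were called lower, against 63.6% over the genome, and in the other promoters 6 of 19 (MAGEL2), 6 of 24 (NDN), 11 of 40 (SNRPN) and 2 of 12 (UBE3A).

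MAGEL2 encodes a protein of the MAGE family that takes part in endosomal protein recycling. Its promoter (chr15:23647367-23648867, 19 of 47 CpGs shared) was at 52.4%, 56.5%, 24.1% and 41.0%. The DNMT1 inhibitor library was lowest, and the EED inhibitor library lay between it and the others. The differences from DMSO were -32.40 points with the DNMT1 inhibitor (Fisher's exact test, adjusted p = 4.28e-19) and -15.51 points in the EED inhibitor library (adjusted p = 5.57e-04, not called). In a wider window from 2000 bp upstream the DNMT1 inhibitor difference was -24.02 points, under the threshold for a call, and the EED inhibitor difference was -7.473 points (Fisher's exact test, adjusted p = 0.0242). With all listed CpGs of each library the EED inhibitor difference was -9.106 points (Fisher's exact test, adjusted p = 0.0101).

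NDN encodes necdin, a growth suppressor of the MAGE family. Its promoter (chr15:23686805-23688305, 24 of 82 CpGs shared) was at 46.4%, 50.2%, 18.5% and 46.5% in the same order. The intervals of the libraries other than the DNMT1 inhibitor overlapped at these CpGs. With all listed CpGs of each library the levels were 52.0%, 49.2%, 21.1% and 41.9%, the EED inhibitor difference went from -3.722 to -7.247 points (Fisher's exact test, adjusted p = 0.0397), and DMSO minus non-differentiated cells changed sign, from 3.80 to -2.81 points. The DNMT1 inhibitor difference was -31.70 points (Fisher's exact test, adjusted p = 3.59e-24), and 36.9% of the DMSO level was kept (29.7 to 45.8%), an interval that holds the 34.1% of the rest. The strict island at the NDN start (chr15:23686274-23687798, 55 shared CpGs) overlaps this window and takes in more of the gene. It kept 49.3% (44.1 to 55.2%), above the rest.

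SNRPN encodes a core protein of the spliceosome. Its promoter window (chr15:24953935-24955435, 40 of 50 CpGs shared) overlaps the control region and also takes in sequence upstream of it. Both lie inside the annotated gene, whose body starts further upstream, at position 24823637. The level was 53.9%, 60.5%, 29.2% and 45.2% in the same order, with DMSO highest and the DNMT1 inhibitor lowest. The differences from DMSO were -31.30 points with the DNMT1 inhibitor (Fisher's exact test, adjusted p = 2.11e-39) and -15.30 points in the EED inhibitor library (adjusted p = 2.35e-07, not called). The share kept with the DNMT1 inhibitor was 48.2% (43.1 to 54.0%).

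UBE3A encodes a ubiquitin ligase. Its promoter (chr15:25438524-25440024) has 124 CpGs in the reference, of which 12 were shared, so most of it was not measured in all libraries. These stood at 18.7%, 16.1%, 0.940% and 20.5% in the same order, and the DNMT1 inhibitor library was the lowest. The difference of -15.15 points (Fisher's exact test, adjusted p = 2.91e-13) could not reach 25 points. On divided reads the adjusted p was 0.12 by Fisher's exact test. In the window from 2000 bp upstream the difference was -46.04 points and was called. Within the promoter 10 of 12 CpGs were at or under 20% in non-differentiated cells. The same count held with DMSO, where 2 CpGs lay between 30 and 70%. Of the DMSO level 5.85% was kept (1.84 to 18.5%), the smallest share of the 5 promoters. That share rests on few CpGs, with 3 of 319 reads methylated with the DNMT1 inhibitor. Its DMSO level was also under the 20% asked of islands for a share kept. The strict island at the UBE3A start (11 of 172 CpGs shared) was at 2.30%, 2.66%, 0% and 5.74%, where 0 of 199 reads allows up to 1.51%.

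On divided reads, none of the 4 promoter calls held. The share of all promoters called on divided reads is not given here, so this loss cannot be set beside it. Fisher's exact test then gave an adjusted p of 0.0119 for MKRN3, 0.116 for MAGEL2, 0.105 for NDN and 0.0839 for SNRPN. For the EED inhibitor differences at MAGEL2 and SNRPN it gave an adjusted p of 1.

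Other genes of the cluster were measured in the same window around 1 annotated transcript start each. Of 17 further names searched, 13 were in the annotation, each with at least 5 shared CpGs in that window. For SNHG14 and PWRN1 the window lies inside the gene, 213.7 and 42.5 kb from the start of its body, and the SNHG14 window falls in the SNORD115 cluster. Their levels had a median of 55.8% in non-differentiated cells, 59.8% with DMSO, 26.6% with the DNMT1 inhibitor and 53.7% in the EED inhibitor library. Compared with DMSO, 13 of 13 were lower with the DNMT1 inhibitor, and 10 of 13 in the EED inhibitor library, while 99.5% and 56.3% of 1 kb windows over the genome were lower. Without SNHG14 and PWRN1 these counts were 11 of 11 and 9 of 11. Several of these windows overlap one another or the SNRPN promoter, and SNURF, which shares the SNRPN transcript, has the same CpGs as SNRPN. NPAP1, a gene of the cluster related to nuclear pore proteins, stood at 72.1%, 67.9%, 36.1% and 71.4% in the same order. Only NPAP1 and SNURF are protein-coding and were tested, and both were called lower with the DNMT1 inhibitor, beside 43.7% of promoters over the genome. SNURF repeats the SNRPN test, and the other 11 were not tested.

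In windows of 1 kb with at least 3 shared CpGs, 1045 of 1702 (61.4%) were called lower with the DNMT1 inhibitor, against 81.3% over the genome. On divided reads 479 (28.1%) were called, against 66.1% over the genome. The median difference was -28.94 points, against -42.41 points over the genome, and no window was called higher. The 5 windows with the highest level left with the DNMT1 inhibitor held 52.4 to 57.7%. Of these, 4 lie in the UBE3A body, where the levels with DMSO were 90.8 to 99.2%, and the other lies in PWRN1. No window of the control region was among them. That region stood at 48.0% even with DMSO, so its absence does not measure the share it kept. Between DMSO and non-differentiated cells 0 windows were called, against 0.000864% called lower and 0.000288% higher over the genome, and the differences ran from -20.48 to 16.62 points.

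With the EED inhibitor 1 window of 1702 was called lower and none higher, against 0.0266% and 0.00592% over the genome. The window, chr15:25257001-25258000 in SNHG14 with 3 shared CpGs, stood at 38.8% in non-differentiated cells, 47.8% with DMSO, 8.82% with the DNMT1 inhibitor and 14.7% in the EED inhibitor library. Both inhibitor libraries were under the other pair. The EED inhibitor difference was -33.16 points (Fisher's exact test, adjusted p = 0.00412), and with windows of at least 5 CpGs none was called. The largest difference upward was 21.92 points in the window chr15:25042001-25043000, from 67.2% to 89.2% (Fisher's exact test, adjusted p = 0.00994), under 25 points and so not called. That window takes in only part of SNORD109A, whose body (1 shared CpG) stood at 92.3% with DMSO and 93.9% in the EED inhibitor library. Small differences leaned downward: 65.4% of the windows were lower with the EED inhibitor than with DMSO, against 56.3% over the genome, with medians of -2.15 and -0.71 points.

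The share kept by the control region was not the highest of the interval. Of its 20 strict islands 17 had at least 5 shared CpGs, of which 10 were called lower with the DNMT1 inhibitor, against 54% over the genome, and 0 were called with the EED inhibitor. The 16 islands at 20% or more with DMSO kept a median of 48.7% (33.3 to 72.0%), and 15 of them kept more than the rest of the interval. An island at chr15:24477396-24478060 kept 72.0% (60.9 to 85.1%), and 3 islands in all kept more than the control region. The counting interval of each of these 3 overlapped that of the control region. Over the genome, 5861 islands at 30 to 70% in non-differentiated cells kept a median of 33.0% (quartiles 23.5 and 43.0%), with a 90th percentile of 51.7%. The 9766 islands at 80% or more kept a median of 43.6% (90th percentile 59.0%), and all strict islands together kept 41.9%.

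**Figure D4:**
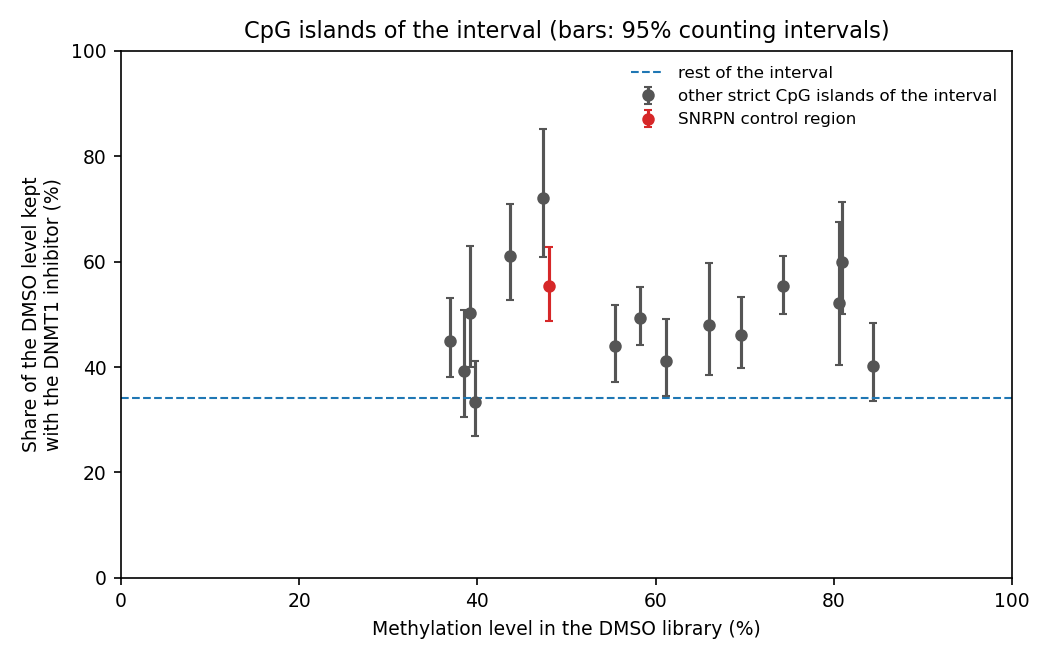
Share of the DMSO level kept with the DNMT1 inhibitor in percent (vertical axis) against the level with DMSO in percent (horizontal axis) for 16 strict islands of the interval, with 95% counting intervals. The control region, in red, kept 55.3%, 3 islands kept more with overlapping intervals, and the dashed line marks the 34.1% of the rest of the interval.

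Islands at the starts of KCNQ1OT1 and PEG3, each a maternally methylated control region elsewhere in the genome, were measured in the same way. The KCNQ1OT1 island (41 of 187 CpGs shared) was at 34.0%, 40.2%, 28.6% and 40.1% and kept 71.3% (62.3 to 81.6%). The PEG3 island (85 of 89 shared) was at 66.3%, 64.9%, 44.4% and 63.9% and kept 68.4% (64.4 to 72.7%). The interval of the control region at SNRPN (48.7 to 62.8%) overlapped that of KCNQ1OT1 and lay under that of PEG3, and no test of these differences was run. By the mean absolute difference over the 4 libraries, the start islands of 12877 protein-coding genes most like the control region were those of MTARC1 and ENSG00000286231, which share 1 island, at 1.49 points, NUPR2 at 2.61, LYPD6B at 3.09 and ZNF695 at 3.12 points.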

How the data were processed

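The 4 deposited tables list, per CpG of hg38 with strands merged, a coverage count and the percent of reads with C and with T, per the file headers. Every deposited coverage count was at least 10, so CpGs under 10 reads, frequent in GC-rich islands, are missing. The submitters' processing notes name Trim Galore 0.6.7, cutadapt 4.1, Bismark, Bowtie2 2.1.0 and methylKit. Their settings and the treatment of duplicates are not given in the sources used here.

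Methylated reads were recovered as the deposited percent times the coverage count, whole within a tolerance of 0.0006 of the coverage for 100% of the values checked. A region's level is the sum of methylated reads divided by the sum of reads, at CpGs listed in all 4 libraries. Islands were computed from hg38 by merging windows of 500 bp with GC content at least 0.55 and observed over expected CpG at least 0.65. Each island was then trimmed to its first and last CpG, so some are shorter than 500 bp. Genes came from GENCODE 44. Single CpGs, windows, islands and protein-coding promoters were tested genome-wide by two-sided Fisher's exact tests with Benjamini-Hochberg adjustment within each comparison and kind of unit, in Python 3.11.15 with numpy 2.4.6 and scipy 1.17.1. Tested on simulated data, 200 of 2431792 windows, drawn only from highly methylated ones, were lowered to 40% of their level. Of these, 96.0% were called in the coverages of the DNMT1 inhibitor comparison and 96.5% in each of the others, and 0 unchanged windows were called. Reads were simulated as independent, so neither the dependence of CpGs on 1 read nor variation between libraries entered this test. Named were the 5 genes, a list of other genes of the cluster, and the 1 kb windows with the highest level left or the largest differences. Members and lists were chosen with earlier results of these data known. Alternatives were a coverage minimum of 20, unweighted means, all listed CpGs, other windows, reads divided by CpGs, a looser call and the non-differentiated library as reference.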

Additional observations from a re-analysis of the deposited data

How the results depend on the processing

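No paired analysis was possible because each group has 1 library, and for the same reason no replicate could be left out. The control region difference with the DNMT1 inhibitor became a call in the promoter window (-31.3 points) and under an adjusted p of 0.05 and 10 points (-21.47). That with the EED inhibitor became a call only under the looser rule (-10.9), and not in the promoter window (-15.3). The rest of the interval moved with the DNMT1 inhibitor from -30.76 points to -29.63 (minimum of 20 reads), -31.67 (unweighted) and -31.81 (non-differentiated reference), and with the EED inhibitor from -2.447 to -3.491 (non-differentiated reference). Windows called with the DNMT1 inhibitor fell from 1045 to 479 with reads divided by CpGs. Windows called with the EED inhibitor went from 1 to 0 with a minimum of 20 reads, at least 5 CpGs, divided reads or the non-differentiated reference, and to 25 under the looser call. Alternatives for single CpGs and for the share kept, and all listed CpGs for promoters, were chosen after seeing the data. Single CpGs called with the DNMT1 inhibitor went from 6158 to 3572 with a minimum of 20 reads, and with the EED inhibitor from 1 to 2 with that minimum and to 9 under the looser call. A minimum of 20 reads leaves fewer CpGs to test, so its counts are not on the same base. For the alternatives other than divided reads, the share called over the genome is not given here. The share kept by the rest went from 34.13% to 32.3% (minimum of 20 reads), 33.38% (non-differentiated reference) and 33.79% (without islands), and that of the control region ranged from 52.7 to 62.8%. The MKRN3 difference between DMSO and non-differentiated cells changed sign with a minimum of 20 reads (-7.274 points, Fisher's exact test, adjusted p = 0.747), and that of NDN with all listed CpGs (-2.81 points, adjusted p = 0.496 by Fisher's exact test). The causes were not tested. CpGs under 10 reads are missing, which leaves 42 of 86 reference CpGs shared in the control region, 24 of 82 in the NDN promoter, 19 of 47 in the MAGEL2 promoter and 12 of 124 in the UBE3A promoter.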

Other observations

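The bodies of the genes differed in the share of the DMSO level kept with the DNMT1 inhibitor. The NDN body, at 54.3% with DMSO and 27.5% with the DNMT1 inhibitor, kept 50.6% (95% counting interval 45.2 to 56.7%). The MAGEL2 body, at 69.4% and 30.7%, kept 44.3% (40.7 to 48.2%), and the NPAP1 body, at 40.5% and 17.9%, kept 44.3% (38.7 to 50.7%). The bodies of SNURF, SNRPN and SNHG14, which overlap in part, lay between, with 39.2% (37.3 to 41.2%), 37.8% (36.9 to 38.6%) and 36.9% (36.4 to 37.4%) kept. The MKRN3 body, at 46.5% and 13.9%, kept 29.8% (28.5 to 31.1%). Of the other bodies outside the small nucleolar RNA genes, PWAR5 kept 47.26% (42.19 to 52.94%) and PWAR1 kept 28.29% (22.52 to 35.54%). UBE3A, PWRN4, PWRN2 and PWRN1 kept 35.57%, 32.23%, 31.75% and 30.85%. These differences were not tested.

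The windows of 1 kb that differed most between DMSO and non-differentiated cells were not called. They were chosen for that difference, so the distance of the DMSO library from the non-differentiated one is a description. Of the 3 largest downward, a window in PWRN1 at chr15:24518001-24519000 stood at 56.2% in non-differentiated cells, 35.7% with DMSO and 53.2% in the EED inhibitor library. The one at chr15:25294001-25295000, in SNHG14, stood at 48.3%, 29.1% and 31.3%, and the one at chr15:24173001-24174000, in PWRN1, at 55%, 37.3% and 44.9%. The 3 largest upward, at chr15:23780001-23781000, chr15:24211001-24212000 and chr15:23672001-23673000, stood at 24.6%, 29.6% and 15.9% in non-differentiated cells, 41.2%, 46.0% and 32.2% with DMSO, and 23.1%, 32.4% and 24.5% in the EED inhibitor library.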
